A study of Mus musculus with 42 samples.

Results

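Parathyroid genes were followed through sorted thymic epithelial cells (TEC) of the mouse. The set held 6 genes of the parathyroid and of calcium handling, chosen by symbol: Pth, Gcm2, Casr, Chga, Kl and Cldn16. They were 6 of 53465 genes in a table of RNA-seq counts, and each had 1 row. The set and the question whether Pth RNA comes with or without Gcm2 RNA were picked with earlier results of these libraries known, so the pattern across libraries is given as a description.

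The parathyroid and the thymus both arise from the third pharyngeal pouch. Chief cells of the parathyroid secrete parathyroid hormone, the product of Pth, when blood calcium falls, and the calcium-sensing receptor, the product of Casr, holds that secretion back when calcium is high. GCM2 is the transcription factor that parathyroid cells need to form in the mouse. Medullary TEC make small amounts of many tissue-restricted RNAs, which show developing T cells the proteins of other organs. In the mouse, Pth RNA of the thymus has been described both in parathyroid cells lying within or beside the organ and in medullary TEC that lack GCM2.

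The series asked what TEC lose when Ski, a corepressor of TGF-beta signalling, is deleted in TEC alone. Cortical TEC (cTEC, sorted as Epcam+CD45-UEA-Ly51+) and medullary TEC with low or high MHC class II (MHCII-low mTEC, Epcam+CD45-UEA+Ly51loMHCIIlo, and MHCII-high mTEC, Epcam+CD45-UEA+Ly51loMHCIIhi) were each taken from genotypes labelled Control (5 libraries a subset), KO (7) and Ski flox Control (2). Each library came from 200 sorted cells. The labels give no Cre driver, deleted exons, age, sex or tie between a library and an animal, so the spread between libraries may be technical in part, and p-values measure only that spread. Libraries under 100000 counts were dropped, which took replicate 2 of the Control group from each medullary subset and left 40 libraries with 3217251 to 7068077 counts (n = 4 Control in each medullary subset). Ski itself had 3.36 to 27.2 CPM (counts scaled to the same library total) in cTEC Control and 0 to 42.2 in cTEC KO, 7.83 to 44.5 and 0.523 to 16.9 in MHCII-low mTEC, and 8.21 to 23.0 and 0 to 16.9 in MHCII-high mTEC (Control first), so ranges overlapped in every subset and KO is used as the labels have it. Ski flox Control lay at 2.7 to 4.347 CPM in cTEC, 31.56 to 32.46 in MHCII-low and 4.582 to 8.746 in MHCII-high mTEC. Counts cover the whole Ski gene, with any exons left in place.

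One library stood apart from its group. In cTEC Control replicate 3, 5 of the 6 genes were among the detected RNAs, and Chga and Pth ranked 1 and 2 of 14168 detected genes by counts. The other 4 cTEC Control libraries held no count of any of the 6. The comparisons of Chga with Control cTEC are therefore given with and without it, while most other results on Control cTEC include it. Its marker genes are described after the members.

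Pth (ENSMUSG00000059077, chromosome 7, 113385580 to 113388570 on the minus strand in GRCm38, 710 exon bases) had counts in 9 of 40 libraries. In cTEC the Control libraries held 0, 0, 43594, 0 and 0 Pth counts, and the 7 KO and both Ski flox Control libraries held 0. Of the MHCII-low mTEC, Control (replicates 1, 3, 4 and 5) had 0, 31, 0 and 0 counts, the 7 KO libraries 0, 0, 0, 135, 0, 4231 and 0, and the Ski flox Control libraries 0 and 0. In MHCII-high mTEC the Control libraries held 0, 0, 0 and 38 counts, the KO libraries 0, 0, 155, 0, 0, 0 and 10, and the Ski flox Control libraries 344 and 97. Pth was thus at 0 in most libraries and ran from 10 to 43594 counts in the 9 that held it. Each group with Pth, save MHCII-high Ski flox Control, also had libraries without it.

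The highest Pth level, 6007 CPM, was 0.617% of the counts of cTEC Control replicate 3 (exact 95% interval 0.611 to 0.623%). The next, 885.4 CPM in MHCII-low mTEC KO replicate 6, was 0.0842% of its counts (0.0817 to 0.0868%). The other 7 libraries with Pth lay between 1.943 and 71.65 CPM. These intervals and the limits set by empty counts hold for counting error alone, as no molecular identifiers were read. A count of 0 in a library allows up to 3 counts, which was 0.413 to 0.924 CPM over the 40 libraries. In libraries of 200 pooled cells, fewer cells of a type and less RNA per cell cannot be told apart.

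By group, mean Pth ran from 1201 ± 2686 CPM (SD, n = 5) in cTEC Control through 129.8 ± 333.3 (n = 7) in MHCII-low KO, 45.47 (71.65 and 19.28) in MHCII-high Ski flox Control, 6.197 ± 15.56 (n = 7) in MHCII-high KO and 1.854 ± 3.709 (n = 4) in MHCII-high Control to 1.752 ± 3.503 (n = 4) in MHCII-low Control, with 0 in the other 3 groups. Each SD over 4 or more libraries exceeded its mean, so no neighbours in this order stood apart beyond their spread.

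**Figure D1:**
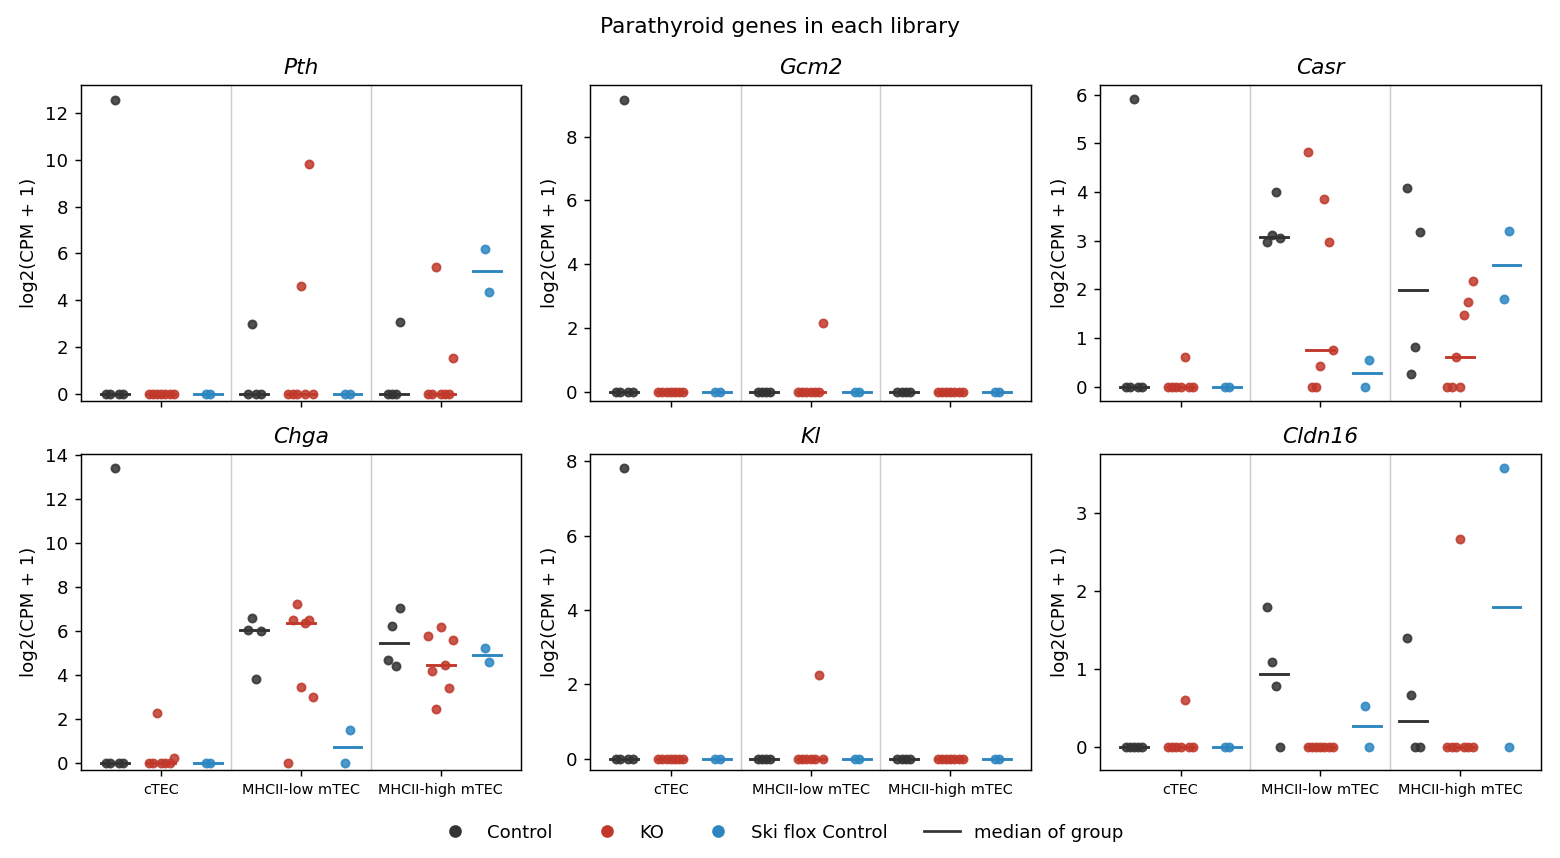
Level of each of the 6 genes as log2(CPM + 1) in the 40 libraries, by subset and genotype. Each point is 1 library and each bar the group median. The single high cTEC point of Pth, Gcm2, Casr, Chga and Kl is Control replicate 3, and Chga and Casr are also spread through both medullary subsets.

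Gcm2 (ENSMUSG00000021362, chromosome 13, 41101427 to 41111035 on the minus strand) had counts in 2 of 40 libraries. It held 4160 counts, 573.2 CPM, in cTEC Control replicate 3 and 20 counts, 3.487 CPM, in MHCII-low mTEC KO replicate 7. All other libraries held 0, and the summed limit over the 4 other cTEC Control libraries was 0.1335 CPM at 3 counts. No MHCII-high mTEC library held a Gcm2 count.

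Set side by side, Pth came with Gcm2 in 1 library, cTEC Control replicate 3. Pth came without Gcm2 in 8 libraries, 3 of MHCII-low and 5 of MHCII-high mTEC, of which 2 were Control, 4 KO and 2 Ski flox Control. Gcm2 came without Pth in 1 library, MHCII-low mTEC KO replicate 7, and neither gene had a count in 30. The 8, 1 and 30 libraries did not change when presence meant at least 3 or at least 10 counts, nor when each library was thinned to 3000000 counts. The early set of libraries by number (19) held 1 library with both, 3 with Pth alone and 15 with neither, and the late set (21) held 5 with Pth alone, 1 with Gcm2 alone and 15 with neither. The sets are not named by any label, and their boundary was chosen after correlations between libraries had been seen.

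**Figure D2:**
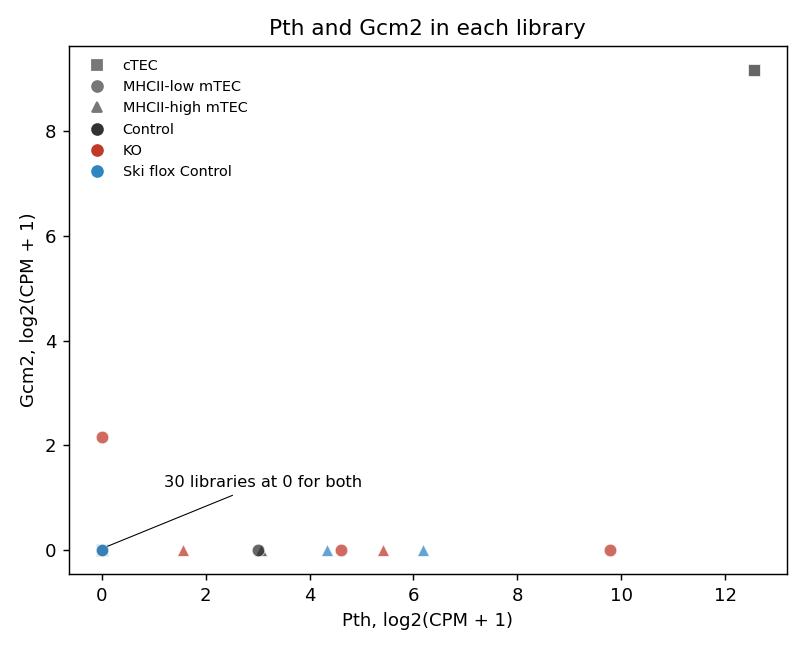
Pth against Gcm2, each as log2(CPM + 1), with 1 point per library, shape for the subset and colour for the genotype. One cTEC Control library lies high on both axes, 8 medullary libraries lie along the Pth axis at 0 Gcm2 (the points of MHCII-low Control replicate 3 and MHCII-high Control replicate 5 overlap), 1 lies on the Gcm2 axis, and 30 lie at the origin.

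How far a Gcm2 count of 0 reaches depends on the Pth count beside it. In cTEC Control replicate 3 there were 9.543 Gcm2 counts for each 100 of Pth. At that proportion, the 4231 Pth counts of MHCII-low KO replicate 6 would go with 403.7 Gcm2 counts, and 0 were found. Its limit was 0.07091 Gcm2 per 100 Pth counts, at least 134.6-fold lower than in cTEC Control replicate 3. For MHCII-high Ski flox Control replicate 1 the same proportion gives 32.83 Gcm2 counts, and for MHCII-high KO replicate 3, MHCII-low KO replicate 4 and MHCII-high Ski flox Control replicate 2 it gives 14.79, 12.88 and 9.256, against 0 found in each. The limits of these 4 libraries were at least 10.94-, 4.93-, 4.294- and 3.085-fold lower. In the remaining 3 libraries, with 38, 31 and 10 Pth counts, the proportion gives 3.626, 2.958 and 0.9543 Gcm2 counts, so the depth there could hardly show a shortfall.

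Windows of 250 bases before the start sites are shown for Pth and for Casr and Chga, the members that had counts in every library with Pth. They are RefSeq sequences of GRCm38.p6, read on the gene strand, at chr7:113388574-113388823 (minus strand) for Pth, chr16:36562135-36562384 (minus strand) for Casr and chr12:102554691-102554940 (plus strand) for Chga. All 6 genes matched the promoter table. Capitals mark matches on either strand to the GATA site, whose forms searched were AGATAA and also AGATAG as well as TGATAA and also TGATAG, to the TATA box (TATAAA) and to the cyclic AMP half-site (TGACG).
Pth: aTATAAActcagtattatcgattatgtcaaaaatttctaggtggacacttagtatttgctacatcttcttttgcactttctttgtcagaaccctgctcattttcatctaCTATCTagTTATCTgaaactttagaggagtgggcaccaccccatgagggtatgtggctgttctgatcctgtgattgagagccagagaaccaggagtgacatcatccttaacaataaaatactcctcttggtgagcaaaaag
Casr: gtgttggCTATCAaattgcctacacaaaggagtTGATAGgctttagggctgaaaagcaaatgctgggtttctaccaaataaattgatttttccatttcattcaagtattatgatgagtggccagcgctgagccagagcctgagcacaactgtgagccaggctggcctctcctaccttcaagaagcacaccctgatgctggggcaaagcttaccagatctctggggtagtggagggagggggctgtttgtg
Chga: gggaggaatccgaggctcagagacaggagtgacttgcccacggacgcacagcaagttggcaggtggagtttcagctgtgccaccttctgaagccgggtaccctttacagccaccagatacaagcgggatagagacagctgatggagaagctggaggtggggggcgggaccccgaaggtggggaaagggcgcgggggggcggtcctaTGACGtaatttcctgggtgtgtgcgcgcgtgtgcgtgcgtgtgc

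The GCM octamer (ATGCGGGT and also ATGCGGGC as well as ATACGGGT and also ATACGGGC on both strands), the motif that GCM proteins bind, was in none of the 6 windows and in 0.679% of 32851 promoter windows of the same length. GATA sites were in 3 windows, with 2 in Pth, 1 in Gcm2 and 2 in Casr, against 26.5% of all windows. The Gcm2 window lies before the RefSeq start but inside the gene as GENCODE draws it, so for Gcm2 these matches may not describe a promoter. TATAAA was in the Pth window only, from 249 to 244 bases before the start (12.4% of all windows), and TGACG in the Chga window only, from 44 to 40 bases before (17.8%). No 2 of these motifs overlapped in the 3 windows shown. A match describes letters and is not a binding site, and its absence speaks only of this window.

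Casr (ENSMUSG00000051980, chromosome 16, 36493696 to 36562141 on the minus strand) was spread through the medulla. In cTEC it held 428 counts, 58.98 CPM, in Control replicate 3, 2 counts in KO replicate 5 and 0 in the other 12 libraries. All 4 MHCII-low Control libraries had it, at 28, 34, 63 and 28 counts, while the MHCII-low KO libraries held 89, 0, 0, 2, 80, 33 and 4 and the Ski flox Control libraries 0 and 2. In MHCII-high mTEC the Control libraries held 58, 1, 3 and 41 counts, the KO libraries 0, 0, 2, 0, 8, 12 and 18, and the Ski flox Control libraries 12 and 41. Casr had counts in 10 of 13 libraries in each medullary subset and in 2 of 14 in cTEC, and its values in KO and Control overlapped in every subset.

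Mean Casr was 11.8 ± 26.37 CPM (SD, n = 5) in cTEC Control, 9.232 ± 3.899 (n = 4) in MHCII-low Control, 6.97 ± 10.33 (n = 7) in MHCII-low KO, 6.209 ± 7.363 (n = 4) in MHCII-high Control, 5.325 (2.499 and 8.15) in MHCII-high Ski flox Control and 1.165 ± 1.396 (n = 7) in MHCII-high KO. The ranges of neighbours in this order overlapped. MHCII-low Ski flox Control (0.2302) and cTEC KO (0.07436 ± 0.1967, n = 7) came lowest above cTEC Ski flox Control at 0. All 9 libraries with Pth also held Casr and Chga, but Casr had counts in 22 and Chga in 27 of the 40.

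Chga (ENSMUSG00000021194, chromosome 12, 102554969 to 102565028 on the plus strand) encodes chromogranin A, which is stored with parathyroid hormone in dense-core granules and is also made by many other neuroendocrine cells. In cTEC it held 78741 counts, 10850 CPM, in Control replicate 3, then 17 counts in KO replicate 3, 1 in KO replicate 7 and 0 in the other 11 libraries. The MHCII-low Control libraries held 267, 423, 56 and 245 counts, the KO libraries 0, 409, 730, 58, 486, 435 and 41, and the Ski flox Control libraries 0 and 8. The MHCII-high Control libraries held 91, 379, 82 and 677 counts, the KO libraries 251, 58, 17, 424, 96, 50 and 245, and the Ski flox Control libraries 179 and 118. Chga was found in all 13 MHCII-high and in 11 of 13 MHCII-low mTEC libraries, and KO and Control overlapped in both.

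After cTEC Control at 2170 ± 4852 CPM (SD, n = 5), mean Chga was highest in MHCII-high Control (62.92 ± 52.07, n = 4), MHCII-low KO (61.54 ± 57.09, n = 7) and MHCII-low Control (59.63 ± 34.09, n = 4), whose means differed by less than 1 SD. MHCII-high KO (32.57 ± 25.89, n = 7) and MHCII-high Ski flox Control (30.37, from 37.28 and 23.46) followed. MHCII-low Ski flox Control (0.9207), cTEC KO (0.5818 ± 1.467, n = 7) and cTEC Ski flox Control (0) came last, and the first of these did not overlap MHCII-high Ski flox Control.

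Kl (ENSMUSG00000058488, chromosome 5, 150952607 to 150993817 on the plus strand) encodes klotho, the co-receptor for FGF23 in kidney and parathyroid. It had counts in 2 libraries, 1623 (223.6 CPM) in cTEC Control replicate 3 and 18 (3.767 CPM) in MHCII-low KO replicate 6, which were the 2 libraries with the most Pth. Cldn16 (ENSMUSG00000038148, chromosome 16, 26463135 to 26482765 on the plus strand) encodes claudin-16, a tight-junction protein of the thick ascending limb of the kidney that carries calcium and magnesium. It followed another pattern: it was at 0 in cTEC Control replicate 3 and had counts in 9 libraries, of which 4 were MHCII-low, 4 MHCII-high and 1 cTEC. Its highest values were 53 counts (11.04 CPM) in MHCII-high Ski flox Control replicate 1, 31 (5.353) in MHCII-high KO replicate 4 and 10 (2.457) in MHCII-low Control replicate 1. In all 7 MHCII-low KO libraries it was at 0, against 10, 5, 3 and 0 counts in the 4 Control libraries.

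The proportions of the members differed between the libraries with Pth. Per 100 Pth counts, cTEC Control replicate 3 held 180.6 of Chga, 3.723 of Kl and 0.9818 of Casr. MHCII-low KO replicate 6 held 10.28 of Chga, 0.4254 of Kl and 0.78 of Casr, so Casr stood at 0.7944 times the cTEC proportion, Chga at 0.05692 and Kl at 0.1143 times. In the 3 libraries with the fewest Pth counts, MHCII-high Control replicate 5, MHCII-low Control replicate 3 and MHCII-high KO replicate 7, Chga exceeded Pth (1782, 1365 and 2450 per 100) and Casr about equalled or exceeded it (107.9, 109.7 and 180.0 per 100). Per kilobase of exon, cTEC Control replicate 3 held 8460 CPM of Pth, 3937 of Chga, 173.5 of Gcm2, 23.97 of Kl and 12.5 of Casr. In MHCII-low KO replicate 6 the same scale gave 1247 of Pth, 33.03 of Chga, 1.464 of Casr and 0.4038 of Kl. Pth led on this scale in both libraries.

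**Figure D3:**
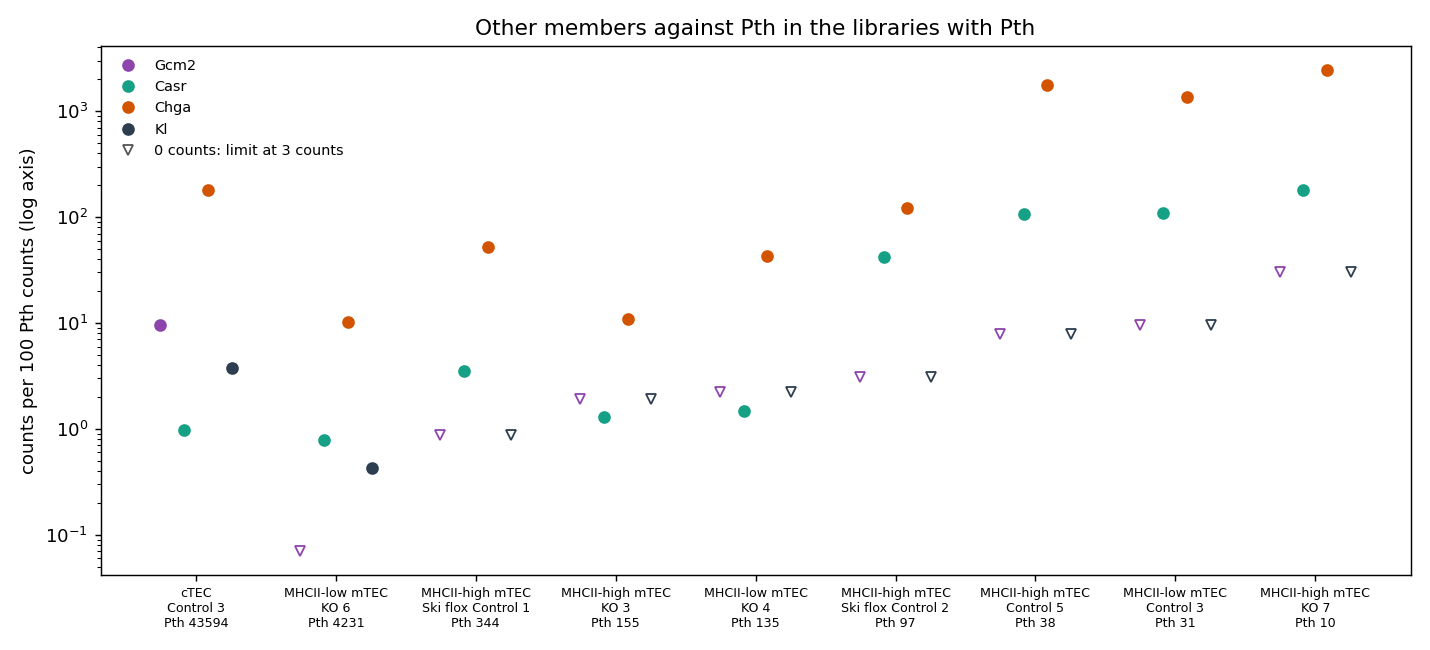
Counts of Gcm2, Casr, Chga and Kl per 100 Pth counts (log axis) in the 9 libraries with Pth, ordered by Pth count. Filled points are measured, and open triangles mark the limit at 3 counts where a gene had 0. Gcm2 has a filled point in cTEC Control replicate 3 alone, and its limit in MHCII-low KO replicate 6 is 0.07091.

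At most 5 of the 6 genes met in 1 library, cTEC Control replicate 3. Of the others, 3 libraries held 4 of them, 10 held 3, 8 held 2, 8 held 1 and 10 held none.

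The other genes of cTEC Control replicate 3 were read from marker lists, which leave out the 6 members. The 8 cortical genes, among them Psmb11 (675.5 CPM) and Prss16 (1030), were all detected and summed to 4142 CPM, inside the 1610 to 13800 of the other 4 cTEC Control libraries. The 8 medullary genes summed to 148.4 CPM, below the 246.2 to 366.9 of the others. That sum was also below 178.4 CPM, the lowest among the other cTEC libraries of any genotype. Its cortical sum was thus inside the wide range of its group. Singly, Ly75 (109.4 CPM) lay below the 115.3 to 254.0 of the other cTEC Control libraries, and the other cortical genes lay inside their ranges. Of 10 thyroid genes 1 (Tg) and of 10 kidney genes 1 (Slc12a3) had counts, and both sums (8.956 and 9.783 CPM) lay within the other libraries' 5.312 to 18.07 and 0 to 12.98.

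Fibroblast genes were at 0 for 5 of 6 and summed to 0.4134 CPM, against 59.78 to 2481. The 8 thymocyte genes summed to 1471 CPM, below 2016 to 4634, although the sort took CD45-negative cells. The 8 myeloid genes (2463 CPM, others 208.2 to 2040) and the 6 endothelial genes (413.2 CPM, others 51.4 to 132.5) summed higher than in any other cTEC Control library. Among the other cTEC libraries of any genotype, sums reached 2556 CPM for myeloid and 461.9 for endothelial genes. They fell to 332.4 CPM for thymocyte and to 0 for fibroblast genes, so each of these sums lay within that wider range. The part of these other cells in the member levels was not tested.

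Among transcription factors of the pharyngeal pouch and parathyroid, GATA3 acts with GCM2. In cTEC Control replicate 3, Gata3 was at 62.56 CPM, above its 0 to 37.01 in the 39 other libraries, and Tbx1 was at 16.67, against 0 in the other 4 cTEC Control libraries and up to 28.86 elsewhere. Without Gcm2, the list summed to 438.7 CPM, inside the others' 46.92 to 919.1. Gata3 and Tbx1 were picked from the list after their values were seen, as were the granule genes named next. Genes of calcium and mineral hormone signalling summed to 444.8 CPM, just above the others' 345.5 to 438.1, and granule genes without Chga to 98.38, above 50.52 to 77.38. Among the other cTEC libraries of any genotype, these sums reached 618.8 and 497.7 CPM. Of the 16 dense-core granule genes besides Chga, only Cpe (33.07 CPM), Resp18 (41.75) and Insm1 (23.56) had counts, while Chgb, Scg2, Scg3 and Scg5 were at 0. Chga was thus high in this library without the other granins.

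**Figure D4:**
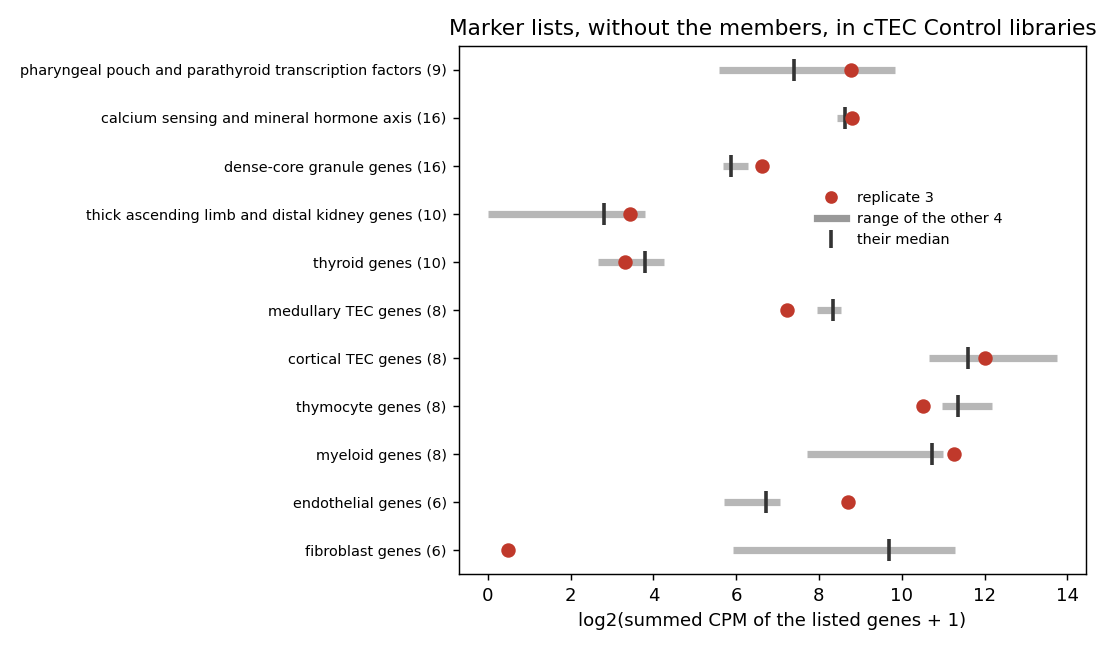
Summed level of each marker list, without the 6 members, as log2(summed CPM + 1) in the cTEC Control libraries. The red point is replicate 3, the grey bar the range of the other 4 libraries and the tick their median, with the number of genes in brackets. Replicate 3 lies inside the grey bar for cortical, thyroid, kidney and pouch genes, above it for endothelial, myeloid, granule and mineral hormone genes, and below it for medullary, thymocyte and, farthest, fibroblast genes.

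MHCII-low KO replicate 6, the library with the second most Pth, differed from its group in other lists. Its 8 medullary genes summed to 316.4 CPM, below the 438.6 to 2203 of the other 6 MHCII-low KO libraries, and its 8 cortical genes to 1909, above their 313.1 to 1557. Its granule genes (139.0 CPM, others 53.35 to 549.5) and thyroid genes (18.42, others 7.671 to 473.7) lay inside the range of the others. The part of these lists in its Pth level was not tested.

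The loss of Ski was compared with Control within each subset. No member rose or fell in KO in any subset by edgeR's quasi-likelihood test, with p-values adjusted by the Benjamini-Hochberg method over 23040 genes and a threshold of 0.05. The rule also called 0% of all genes in each of the 3 subsets, while 10.6%, 7.11% and 6.88% had an unadjusted p under that value. All 6 members had passed the filter on low counts, which a gene could pass through a single group where it was high. Unadjusted p was under 0.05 for 5 members in cTEC, 1 in MHCII-low and 0 in MHCII-high mTEC.

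In cTEC the 5 members with an unadjusted p under 0.05 were those of Control replicate 3. Chga was at -11.86 on the log2 scale (SE 2.25, edgeR adjusted p = 0.0834), Casr -6.98 (SE 2.08, adjusted p = 0.3291), and Pth, Gcm2 and Kl were at 0 in all KO libraries, at least 13820-, 1318- and 514.6-fold lower than the Control mean (edgeR adjusted p = 0.298, 0.3291 and 0.3291). Without Control replicate 3, the Control group held no count of any member and Chga went to 4.48 (SE 1.87, edgeR adjusted p = 0.4416; 0.00437% of all genes called), which reverses its direction. Over 19 alternatives Chga's adjusted p ran from 0.02396 to 1. It passed the threshold without Control replicate 1, 2, 4 or 5, each of which holds 0 Chga, and with either other count filter. DESeq2 called Casr in cTEC (adjusted p = 0.009192, 2.53% of all genes called), and over 20 alternatives with it the adjusted p of Casr ran from 0.009192 to 1.0.

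Between genotypes of the medullary subsets, Chga was at 0.05 (SE 1.63, edgeR adjusted p = 1.0) for the MHCII-low and -0.95 (SE 1.6, adjusted p = 1.0) for the MHCII-high cells on the log2 scale. Pth differed by 6.17 (SE 3.34, edgeR adjusted p = 0.749) in MHCII-low mTEC, where KO replicate 6 carried the mean: without it the log2 difference was 1.18. In MHCII-high mTEC it was at 1.66 (SE 2.71, edgeR adjusted p = 1.0), a direction that turned to -2.41 without KO replicate 3 and went to 7.9 without Control replicate 5. DESeq2 (-2.76), all 42 libraries (-1.55) and the late set (-2.43) turned it too. Cldn16, at 0 in MHCII-low KO, was at least 12.5-fold lower there (edgeR adjusted p = 0.6386), and at least 7.155-fold without Control replicate 1. The difference of the KO effect between subsets was not past the threshold for any member in any of the 3 pairs (0% of all genes called), with the lowest edgeR adjusted p at 0.4534.

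Subsets were compared within Control, where 0 of the 6 members passed between MHCII-low mTEC and cTEC (0.773% of all genes called), between MHCII-high mTEC and cTEC (1.11%) and between the medullary subsets (0%). With cTEC Control replicate 3 in the mean, Chga was at -5.18 (SE 2.16, edgeR adjusted p = 0.2015) for MHCII-low and -5.11 (SE 2.15, adjusted p = 0.1683) for MHCII-high cells against cTEC. Without that library it rose in both, by 11.19 (SE 2.23, edgeR adjusted p = 0.02084; 0.489% of all genes called) and 11.28 (SE 2.24, adjusted p = 0.01685; 0.406% called). The cTEC side of those folds is then 4 libraries at 0, so their size depends on the prior count and the direction alone can be read. The adjusted p ran from 0.01905 to 0.6824 and from 0.01685 to 0.5296 over 17 alternatives each. In the late set, which does not hold that library, Chga was also called in both (edgeR adjusted p = 0.01905 and 0.03896, with 3.51% and 0.707% of all genes called).

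The same contrasts in KO, added after these values were seen, rest on 7 libraries a group. Chga rose in MHCII-low mTEC against cTEC, by 6.72 (SE 1.87, edgeR adjusted p = 0.03262), the 1 member of 6 called (5.68% of all genes, 5.19% higher), and was above every cTEC KO library in 6 of 7 MHCII-low libraries. It also rose in MHCII-high mTEC against cTEC, by 5.81 (SE 1.81, edgeR adjusted p = 0.03256; 14.7% of all genes called, 12.9% higher), again as the 1 member called, and was above every cTEC KO library in 7 of 7. Between the medullary subsets Chga did not pass (-0.92, SE 1.4, edgeR adjusted p = 0.857; 0.0174% of all genes called). Both Chga calls were lost without cTEC KO replicate 1, 2, 4, 5, 6 or 7, libraries with 0 or 1 Chga count, and over 22 alternatives the adjusted p ran from 0.002366 to 0.2756 and from 0.0005021 to 0.2137.

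Casr was at 6.22 (SE 1.98, edgeR adjusted p = 0.0537) in MHCII-low mTEC against cTEC among KO libraries and at 3.67 (SE 1.76, adjusted p = 0.1391) for the MHCII-high cells. Over 22 alternatives the first ran from 0.003323, in DESeq2 (12.1% of all genes called), to 0.2747. Pth, at 0 in all cTEC KO libraries, was at least 1493-fold higher in the MHCII-low mean (edgeR adjusted p = 0.05165), and at least 45.05-fold higher without MHCII-low KO replicate 6. Over 21 alternatives its adjusted p ran from 0.04326 to 0.39. In MHCII-high mTEC it was at least 71.29-fold higher (edgeR adjusted p = 0.1356), and at least 3.724-fold without KO replicate 3. Gcm2, Kl and Cldn16 did not pass in either contrast. DESeq2 gave no adjusted p for Chga or Pth.

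**Figure D5:**
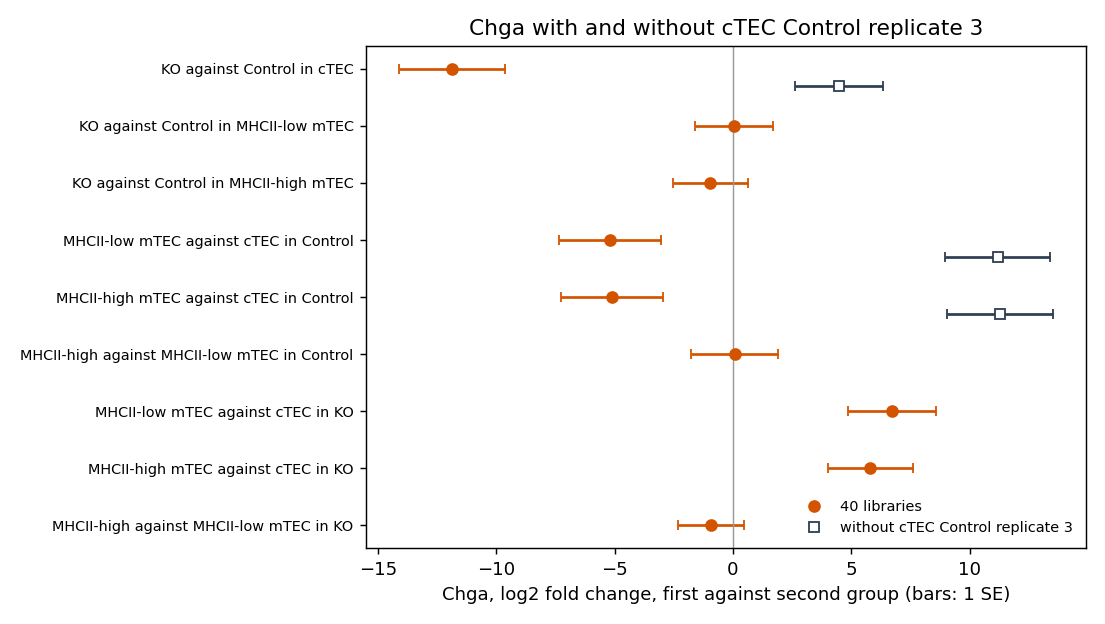
Log2 fold change of Chga (bars 1 SE) in the 9 comparisons, with the 40 libraries (filled) and, for the 3 comparisons that use it, without cTEC Control replicate 3 (open). The 3 open points lie on the other side of 0 from the filled ones, and in KO, where that library plays no part, Chga is 6.72 and 5.81 above cTEC in the medullary subsets.

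Genes of calcium and mineral hormone signalling besides the members were tested as a list. Of 13 tested, 0 passed between KO and Control in any subset, 0 passed between subsets in Control, and 1 passed in MHCII-low and in MHCII-high mTEC against cTEC within KO (median log2 fold change 0.0 and 0.58, against 0.25 and 0.28 over all genes). With 5.68% and 14.7% of all genes called in these contrasts, 1 of 13 does not set the list apart. The gene was Pthlh, which encodes the PTH-related protein, at 94.78 ± 55.38 CPM (SD, n = 7) in MHCII-low, 35.36 ± 34.29 (n = 7) in MHCII-high mTEC and 1.541 ± 3.838 (n = 7) in cTEC. Its log2 fold changes were 5.93 (SE 1.29, edgeR adjusted p = 0.008132) and 4.51 (SE 1.21, adjusted p = 0.01674). Ap2s1, an adaptor subunit that acts in the traffic of CASR, did not pass within Control (206.3 ± 20.97 CPM, n = 4, in MHCII-low mTEC and 183.9 ± 39.25, n = 5, in cTEC). Neither did Cdc73, a tumour suppressor of the parathyroid (49.82 ± 18.58 and 56.08 ± 5.792 CPM).

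Of the 10 transcription factors of the pouch and parathyroid, 0 passed between KO and Control, 0 between subsets in Control and 0 in MHCII-low mTEC against cTEC within KO. Eya1 (136.4 ± 130.1 in MHCII-low and 18.54 ± 35.59 CPM in cTEC KO) and Pax1 (58.0 ± 37.46 and 172.5 ± 148.2) did not pass there (edgeR adjusted p = 0.09981 and 0.1535).

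Dense-core granule genes were the list Chga belongs to. Of 17 tested, Chga among them, 5 rose and 0 fell in MHCII-low mTEC against cTEC within KO (median 2.87, all genes 0.25; 5.19% of all genes rose), and 4 rose and 0 fell in MHCII-high mTEC (median 3.07, all genes 0.28; 12.9% rose). Scg5, a chaperone of prohormone convertase, rose by 3.16 (SE 1.08, edgeR adjusted p = 0.04553) to 53.42 ± 33.24 CPM (SD, n = 7) in MHCII-high mTEC and by 4.22 (adjusted p = 0.02662) to 111.8 ± 88.66 (n = 7) in MHCII-low mTEC. Snap25, a vesicle fusion protein, was at 19.93 ± 16.83 CPM in the latter (edgeR adjusted p = 0.001952), and Vgf, a granule protein, at 2.485 ± 4.412 (adjusted p = 0.02452), with cTEC KO at 0 for both. Within Control 1 of 17 rose in each medullary subset, Scg5. There 0.773% (MHCII-low) and 1.11% (MHCII-high) of all genes were called in either direction. Without cTEC Control replicate 3, 2 rose in each, Scg5 and Chga, with 0.489% and 0.406% of all genes called. None of the 17 passed between KO and Control (0% of all genes called). In the same KO contrasts, 3 and 5 of 8 medullary genes rose and 5 of 8 cortical genes fell in each. Of all genes, 5.68% and 14.7% were called there in either direction, and 5.19% and 12.9% as higher.

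Genes whose level was most like that of a member over the 40 libraries were named by Pearson's r of log2(CPM + 1), as a description. For Pth these were Sgtb (r = 0.621), Gng12 (0.605), Zswim5 (0.562), Piwil2 (0.55) and Chga (0.546), of 15068 genes. Without cTEC Control replicate 3 they fell to 0.433, 0.41, 0.179, 0.503 and 0.327. For Gcm2 they were Prr36 (0.818), Zswim5 (0.698), Sycp2l (0.647), Nell1 (0.634) and Myh4 (0.588), and only Prr36 (0.609) stayed above 0 without that library. Gcm2 then had counts in 1 library alone, MHCII-low KO replicate 7 (20 counts), so this r rests on that library. For Chga they were Bmp3 (0.714), Rgl3 (0.709), Serpinb2 (0.697), Rgs5 (0.686) and Apoa4 (0.685). These held at 0.691, 0.752, 0.78, 0.762 and 0.789 without cTEC Control replicate 3. The points share subsets and depth, and those of Pth and Gcm2 are mostly at 0.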

How the data were processed

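RNA was measured in 42 libraries of 200 sorted cells, made by SMART-Seq v4 and Nextera XT per the labels' protocols, which mark neither strand nor molecule. The authors deposited raw read counts per Ensembl gene. The submitters' processing notes name SAMtools 1.2, FastQC 0.11.3, Picard 1.134 and HTSeq 0.4.1, with GRCm38 as build. Aligner, annotation release and strand setting: not given in the sources used here. Symbols, positions and exon lengths came from GENCODE M21 (53360 of 53465 genes matched) and promoters from RefSeq GRCm38.p6. Casr overlaps Gm25902 on the same strand without shared exons.

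The members, the gene lists and the tests were chosen with earlier results of these data known. Libraries under 100000 counts were dropped, with 82 and 41828 counts, leaving 40. In R 4.3.3, edgeR 4.0.16 (TMM, filterByExpr with minimum count 10, minimum total 15 and smallest group 2, glmQLFit, glmQLFTest) was fitted to 9 groups and 23040 genes, with a biological coefficient of variation of 1.4. P-values were adjusted over all genes tested by the Benjamini-Hochberg method, with a threshold of 0.05. CPM used TMM-scaled totals, and shares of counts the raw totals. A group at 0 was set at 3 counts over its summed totals for a least fold. Exact binomial intervals (95%) were computed in SciPy 1.17.1, with Python 3.11.15, NumPy 2.4.6 and pandas 2.3.3. The 6 comparisons of KO with Control and of subsets in Control were followed by 3 subset comparisons in KO, added after the values were seen.

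Named genes were the 6 members, the 5 genes of highest correlation with Pth, Gcm2 and Chga (with counts in at least 25% of libraries), and from each other list up to 4 called genes, or else the 2 of highest mean CPM. List genes named for their level in cTEC Control replicate 3 (such as Gata3, Tbx1, Tg, Slc12a3, Psmb11, Prss16 and the granule genes there) fall outside this rule and were chosen after their values were seen. Alternatives were RLE size factors, no count filter, 10 CPM in 5 libraries, DESeq2 1.42.0, limma 3.58.1 (voom), fitting only the groups compared, all 42 libraries, the early or late set, and leaving out each library in turn. The fit was tested on simulated data, with a pass mark set only at a spread between libraries smaller than that of these data. It therefore does not show how many changes the fit would find here. Replicate numbers follow library order, in which cTEC, MHCII-low and MHCII-high mTEC of the same genotype come in turn. Libraries of the same number may share an animal, which no label tells, and the comparisons treat all libraries as independent. Some results on single genes of the lists are not reported here.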

Additional observations from a re-analysis of the deposited data

Results flagged for a closer look

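Within groups of 4 to 10 libraries, the highest library was set apart from the others by Dixon's test in 16 of 25 groups with counts of a member. The test flags about 1 in 20 by chance where values are normally distributed, which these counts are not. These genes are at 0 in most libraries, so a single library with counts is enough, and the number flagged cannot be set against that rate. In cTEC Control, replicate 3 was set apart for Pth (6007 CPM), Gcm2 (573.2), Casr (58.98), Chga (10850) and Kl (223.6). In cTEC KO it was replicate 5 for Casr and for Cldn16 (0.5205 CPM each, 2 counts) and replicate 3 for Chga (3.905).

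In MHCII-low mTEC, Control replicate 3 was set apart for Pth (7.007 CPM), Control replicate 4 for Casr (15.06), KO replicate 6 for Pth (885.4) and Kl (3.767), and KO replicate 7 for Gcm2 (3.487). In MHCII-high mTEC, Control replicate 5 (7.417 CPM) and KO replicate 3 (41.44) were set apart for Pth, and KO replicate 4 for Cldn16 (5.353).

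One signal lay in a library outside the comparisons. MHCII-high mTEC Control replicate 2, dropped for its total of 41828 counts, held 14 Pth counts and 0 of the other 5 genes, or 334.7 CPM (exact 95% interval 183.0 to 561.5).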

How the results depend on the processing

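No paired analysis was possible because the library titles carry no replicate numbers. Pth without Gcm2 was seen in 8 libraries, 9 with all 42, 3 in the early set and 5 in the late set; both genes met in 0 libraries of the late set, and Gcm2 came alone in 0 of the early set. Counts of members called that moved were as follows. KO against Control in cTEC (0) gave 1 with no count filter and with 10 CPM in 5 libraries (Chga), 1 in DESeq2 (Casr), and 0 to 1 with a library left out. Medullary subsets against cTEC in Control (0 each) gave 1 in the late set and 0 to 1 with a library left out. MHCII-low mTEC against cTEC in KO (1) gave 2 with RLE, 3 with 10 CPM in 5 libraries and with all 42 libraries, 0 with only the groups compared and in the early set, and 0 to 3 with a library left out. MHCII-high mTEC against cTEC in KO (1) gave 0 in the early set and in DESeq2, which gives no adjusted p for Chga, and 0 to 1 with a library left out. The other 4 comparisons gave 0 under every alternative. The share of all genes called moved too. In the late set it went from 0.773% to 3.51% for MHCII-low and from 1.11% to 0.707% for MHCII-high mTEC against cTEC in Control. For most alternatives that share is not given here, so these counts are not read as results about the members.

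Directions turned as follows, in log2 fold change. In KO against Control in cTEC, Chga was 1.86 and Casr 2.88 in the late set, and with a library left out they ran from -15.19 to 4.48 and from -8.84 to 1.85, the upper ends without Control replicate 3. In MHCII-low mTEC, Chga (0.05) was -1.06 in limma voom and -0.4 in the early set, and ran from -0.36 to 0.37 with a library left out. In MHCII-high mTEC, Pth was -2.76 in DESeq2, -1.55 with all 42 libraries, -2.43 in the late set, and -2.41 to 7.9 with a library left out. In MHCII-low mTEC against cTEC in Control, Chga was 5.75 in limma voom and 10.54 in the late set, and Casr 4.95 and 8.76; with a library left out they ran from -5.51 to 11.19 and from -0.69 to 8.54. In MHCII-high mTEC against cTEC in Control, Chga was 5.87 and 11.51 and Casr 3.06 and 7.39; with a library left out they ran from -5.71 to 11.28 and from -1.97 to 7.97. Between the medullary subsets, Chga was -0.72 in the early set of Control, -0.6 to 0.4 with a library left out, and 0.1 in limma voom of KO. The late set lacks cTEC Control replicate 3, which sets the sign in the first and in the Control subset comparisons. The cause of the other turns was not tested.

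Genes called over the whole table between KO and Control numbered 0 in edgeR in each subset, 520, 229 and 146 in DESeq2 and 10, 11 and 14 in limma voom. Subsets in Control gave 178, 256 and 0 in edgeR, 1521, 1713 and 201 in DESeq2 and 1038, 1954 and 79 in limma voom. Depth limits a library at 0 to 0.413 to 0.924 CPM.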

Other observations

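Medullary libraries also held RNA of other endocrine and kidney genes beside Chga. Of 9 thyroid genes tested, 2 rose in MHCII-low and 3 in MHCII-high mTEC against cTEC within KO by edgeR (median log2 fold change 1.82 and 4.96, against 0.25 and 0.28 over all genes, of which 5.19% and 12.9% rose). Calca, which encodes calcitonin, a hormone that lowers blood calcium, and a neuropeptide, was at 485.1 ± 352.4 CPM (SD, n = 7) in MHCII-high mTEC and 1.313 ± 3.473 (n = 7) in cTEC (log2 fold change 8.54, SE 1.79, edgeR adjusted p = 0.004084). It also rose in MHCII-high mTEC against cTEC within Control, to 173.0 ± 84.13 CPM (n = 4; edgeR adjusted p = 0.01994), with cTEC Control at 0. Foxe1, a transcription factor of the thyroid, was at 5.238 ± 4.55 CPM (n = 7) in MHCII-low KO, against 0 in cTEC KO (edgeR adjusted p = 0.01296).

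Of 12 genes of the thick ascending limb and distal kidney tested, Casr, Kl and Cldn16 among them, 0 rose in MHCII-low and 4 in MHCII-high mTEC against cTEC within KO, where 5.19% and 12.9% of all genes rose. Within Control 1 rose in MHCII-low mTEC (Pvalb, 26.91 ± 28.74 CPM, SD, n = 4, edgeR adjusted p = 0.04149). In MHCII-high mTEC 2 rose (Pvalb and Calb1, edgeR adjusted p = 0.0261 and 0.03792), with cTEC Control at 0 for both genes. In these Control contrasts 0.773% and 1.11% of all genes were called in either direction. Among KO libraries of MHCII-high mTEC, Umod, a protein secreted by the thick ascending limb, was at 12.5 ± 21.06 CPM (SD, n = 7; edgeR adjusted p = 0.01424), and Calb1, a calcium-binding protein, at 179.6 ± 181.3 (n = 7; log2 fold change 5.61, SE 1.78, edgeR adjusted p = 0.03539).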
